A study of Mus musculus with 12 samples.

Results

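The transcriptome of AML12 cells exposed to taurocholic acid (TCA) without copper was compared with that of untreated cells. AML12 cells are hepatocytes of mouse liver grown as an immortalized line. Of the 4 groups of 3 libraries in the series, 2 are compared here: the TCA group, given 1000 μM TCA for 24 h, and the untreated group, kept in standard medium. Cells of the other 2 groups were given elesclomol, which carries copper across membranes, at 40 nM and CuCl2 at 300 μM (Cu/ES) for 24 h, without or with TCA at the same dose, and are used in the last comparison only. RNA was polyadenylated RNA, and no allele, transgene or copper treatment distinguishes the TCA group from the untreated group. The members are the genes with a mean of at least 1 FPKM (reads scaled by gene length and by library size) over the 6 libraries. This rule kept 10739 of the 24824 genes in the table, with a lowest mean of 1.0 FPKM inside it and a highest mean of 0.999 FPKM outside it.

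Taurocholic acid is cholic acid conjugated to taurine, a primary bile salt that hepatocytes make from cholesterol and secrete into bile. Hepatocytes take it up mainly through a sodium-coupled transporter and export it through the bile salt export pump. Bile salts are also signals: they activate the nuclear receptor FXR, the membrane receptor TGR5 and, when conjugated, the sphingosine 1-phosphate receptor S1PR2, and they accumulate in hepatocytes when bile flow is blocked.

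The libraries held 38298857 to 39108519 reads in the untreated group and 39444420 to 39782142 in the TCA group as read back from the FPKM steps. Reads of the mitochondrial genome made up 1.93% to 2.23% of each library. Most defining hepatocyte genes were at or near 0: of 11 hepatocyte markers in the table, 7 to 9 were listed at 0 in each library, Alb, Apob, Hnf4a and Fgb among them, and only the keratin genes Krt8 and Krt18 reached 1 FPKM. Summed over the list, these markers lay between 596 and 649 FPKM in untreated and between 697 and 717 FPKM in TCA libraries, nearly all of it from the keratins. The cholangiocyte markers Krt19, Spp1 and Sox9 were expressed, and their list summed to 920 to 1000 FPKM untreated and to 743 to 790 FPKM with TCA. Of the fibroblast and stellate cell markers, 4 of 9 were tested, summing to 142 to 208 FPKM untreated and to 122 to 185 FPKM with TCA, and the 7 endothelial markers summed to 1.25 FPKM at most. Their part in the results below was not tested. In bulk RNA, fewer cells of a kind and less RNA per cell cannot be told apart. Nothing in the labels says that the 3 libraries of a group came from separate cultures, so the p-values measure the spread between these libraries, which may be technical.

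The mean Euclidean distance between an untreated and a TCA library was 31.9 on log2(FPKM + 1), against 19.5 within groups, a ratio of 1.64. Every distance between groups, from 28.1 to 35.2, exceeded the longest distance within a group, 22.6. The first principal component held 59.9% of the variance and separated the groups, with untreated libraries between −14.49 and −12.72 and TCA libraries between 10.96 and 15.58. The second held 22.9% and set the replicate 2 library of both groups apart, at −12.37 and −11.67 against 4.74 to 7.87 for the other 4. With both replicate 2 libraries left out, the ratio was 2.10.

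Of the 10739 genes tested, 3078 (28.7%) passed an adjusted p of 0.05 (limma on 6 libraries, two-sided, Benjamini-Hochberg), 1404 (13.1%) higher with TCA and 1674 (15.6%) lower. Only 7 genes (0.0652%) also rose and 16 (0.149%) also fell by more than 2-fold. That count depends on the scale, with 18 and 81 genes at a pseudocount of 0.1 and 23 and 97 with limma-voom on recovered reads. Of the genes called, 646 changed by under 1.2-fold, 2077 by 1.2 to 1.5-fold, 332 by 1.5 to 2-fold and 23 by more. The median log2 fold change was 0.34 over the rises and −0.38 over the falls, against −0.02 over all genes tested. The 3 TCA libraries all lay above the 3 untreated ones for 2176 genes (20.3%) and all below for 2644 (24.6%). No single gene can go below p = 0.1 in an exact permutation test of 3 libraries against 3.

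Rises and falls were found at different levels of expression. Among genes with a mean of 1 to 5 FPKM, 160 rose and 536 fell, while at 20 to 100 FPKM 611 rose and 354 fell, and at 100 FPKM or more 112 rose and 44 fell. By gene length as recovered from the FPKM values, 572 genes rose and 513 fell in the shorter 3580 genes, while among the longest 3580 the median change was −0.059 and 596 fell. Their part in the list results below was not tested. With median-ratio scaling, which moved the median of all genes from −0.024 to 0.016, 1789 genes rose and 1315 fell, so 57.6% of the calls were rises against 45.6% in the values as deposited. The number called fell to 1839 without untreated replicate 1, 2033 without untreated replicate 3, 1934 without TCA replicate 1 and 1781 without TCA replicate 3, and was 3959 with both replicate 2 libraries left out.

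**Figure D1:**
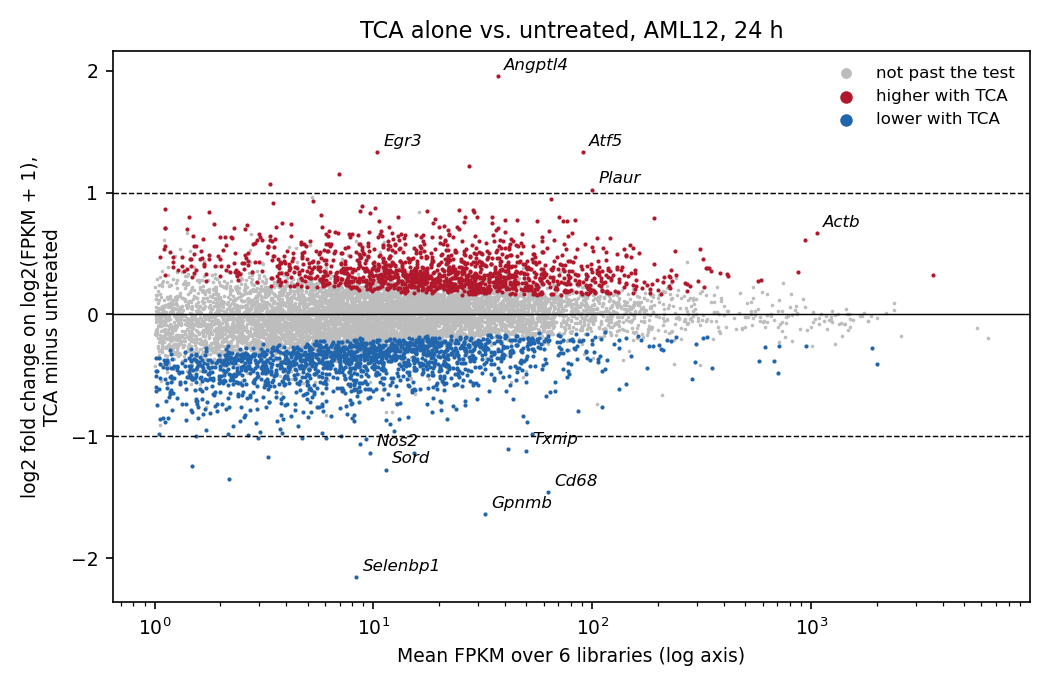
Mean FPKM over the 6 libraries (x, log axis) against the log2 fold change on log2(FPKM + 1), TCA minus untreated (y), for 10739 genes. Red and blue points passed an adjusted p of 0.05 upward (1404) and downward (1674), and the dashed lines mark a 2-fold change, past which few genes lie.

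The largest rise was that of Angptl4, which encodes a secreted inhibitor of lipoprotein lipase and is a classical target of PPAR receptors. It stood at 12.7, 17.2 and 13.8 FPKM in untreated libraries and at 54.4, 63.6 and 60 FPKM with TCA, a log2 fold change of 1.96 ± 0.11 (SE, adjusted p = 0.000176). Egr3, an immediate early zinc finger factor, went from 5.20 to 5.74 FPKM untreated to 14.4 to 17.0 FPKM with TCA, and Atf5, a bZIP factor of the integrated stress response, from 46.0 to 60 FPKM to 120 to 140 FPKM. Both rose by 1.33 on the log2 scale (adjusted p = 0.000176 and 0.000315). None of these groups overlapped, which the rule that named these genes required.

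Genes for secreted or surface proteins followed. Serpinb2, the plasminogen activator inhibitor type 2, rose by 1.22 (adjusted p = 0.00405), Nppb, the B-type natriuretic peptide, by 1.15 (adjusted p = 0.00336) and Plaur, the urokinase receptor, by 1.03 (adjusted p = 0.000176). Nppb was uneven within the TCA group, at 12.2, 6.63 and 11.4 FPKM against 3.6 to 4.14 FPKM untreated. The other rises named by rule were the immediate early gene Ier2 (0.95), the p53-induced exonuclease Aen (0.93), the coenzyme Q-binding protein Coq10b (0.89), the ribosome assembly factors Bysl (0.87) and Mphosph10 (0.85), the glycine transporter Slc6a9 (0.86), the cystine transporter Slc7a11 (0.85), Abcf2 (0.84) and Odaph (0.85). Odaph did not pass without untreated replicate 1 (adjusted p = 0.0614), TCA replicate 1 (0.0707) or TCA replicate 3 (0.0773).

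The largest fall was that of Selenbp1, a methanethiol oxidase, from 15.8, 10.9 and 16.1 FPKM to 2.88, 1.38 and 3.14 FPKM. The log2 fold change was −2.16 ± 0.21 (SE, adjusted p = 0.000731). A pair of glycoproteins of the lysosomal membrane came next. Gpnmb stood at 42.7, 62.4 and 43.3 FPKM untreated and 13.1, 17.9 and 14.2 FPKM with TCA (log2 fold change −1.64, adjusted p = 0.000651), and Cd68 at 102, 72.5 and 102 against 36.4, 25.5 and 37.0 FPKM (−1.46, adjusted p = 0.00107). Cd68 is also a macrophage marker, but of the 12 macrophage markers in the table only Cd68 and Cd14 reached a mean of 1 FPKM, and Adgre1 and C1qa were listed at 0 in all 6 libraries. The summed level of that list was 79.9 to 108 FPKM untreated and 32.7 to 45.4 FPKM with TCA, most of it Cd68.

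Sord, the sorbitol dehydrogenase, fell from 15.7 to 17.7 FPKM to 5.69 to 6.59 FPKM (−1.27, adjusted p = 0.000176), and Nos2, the inducible nitric oxide synthase, from 12.5 to 14.2 FPKM to 5.55 to 5.79 FPKM (−1.13, adjusted p = 0.000176). Txnip, which binds thioredoxin and limits glucose uptake, went from 54.6, 79.1 and 73.0 FPKM to 26.3, 36.8 and 30.2 FPKM (−1.12, adjusted p = 0.00176). The glycolytic isoenzymes Eno2 and Aldoc fell by 1.0 and 0.98 on the log2 scale. Gpr15lg, the ligand of the receptor GPR15, fell by 1.14 (adjusted p = 0.0169), a call lost without untreated replicate 1 (adjusted p = 0.0596). The others were Uap1l1 (−1.10), 4930447F24Rik (−1.06), Mroh1 (−1.03), Mpp2 (−1.02), Klhl24 (−0.97) and the adenylosuccinate synthase Adssl1 (−0.95).

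**Figure D2:**
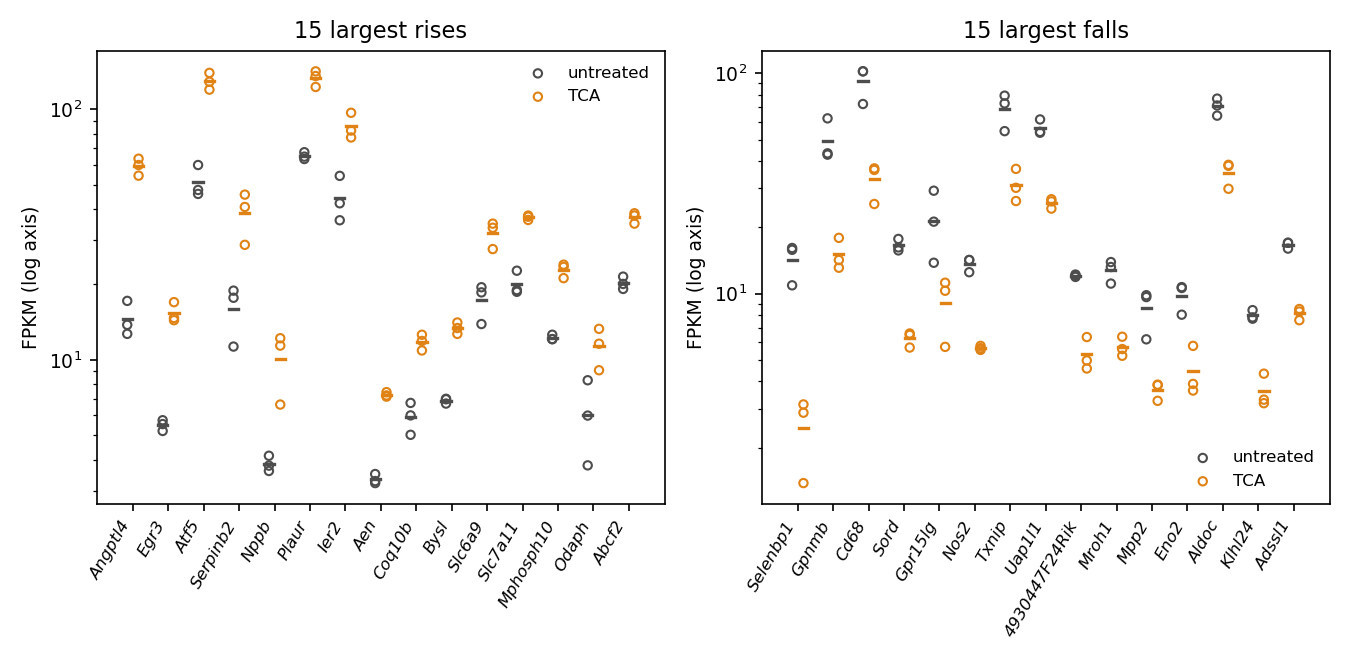
FPKM (log axis) of the 15 largest rises and 15 largest falls in each of the 3 untreated (grey) and 3 TCA (orange) libraries, with a bar at each mean. Groups do not overlap for any of the 30 genes, since that was part of the rule that chose them.

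Genes were then grouped by function. Counts are of tested genes past the adjusted p in each direction, to be read beside 13.1% rising and 15.6% falling over all genes tested and an overall median of −0.02. The medians of the lists given below as higher or lower kept their sign with TPM, median-ratio and quantile scaling.

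**Figure D3:**
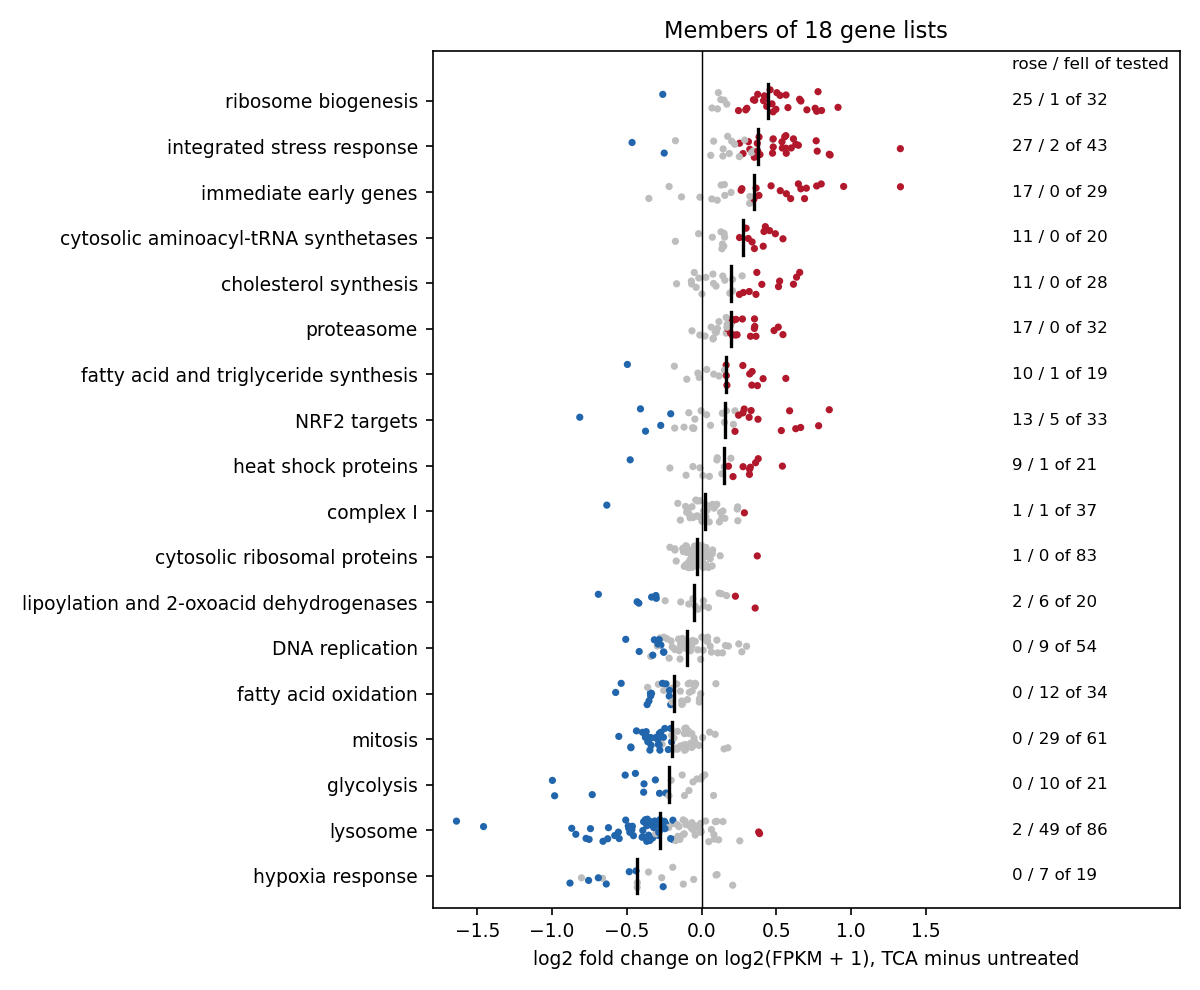
Log2 fold change (x, TCA minus untreated) of every tested member of 18 gene lists, with the list median as a black bar and the numbers that rose and fell at the right. Ribosome biogenesis lies furthest to the right (25 of 32 rose) and the hypoxia and lysosome lists furthest to the left (7 of 19 and 49 of 86 fell).

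The integrated stress response couples shortage of amino acids and other stresses, through phosphorylation of eIF2 alpha, to translation of the factor ATF4, which raises genes for amino acid supply. Of 43 members tested, 27 rose and 2 fell, with a median of 0.38. All 8 amino acid transporters rose, by 0.48 to 0.86. Slc7a11, which imports cystine for glutathione, stood at 22.7, 18.7 and 19 FPKM untreated and at 36.2, 37.3 and 37.7 FPKM with TCA (adjusted p = 0.000558). Slc7a5, the light chain of the leucine transporter, went from 112 to 126 FPKM to 172 to 183 FPKM (0.57, adjusted p = 0.000827). Both were higher in each TCA library than in any untreated one, which for Slc7a11 was part of the rule that named it.

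Among the factors of the response 8 of 12 rose and 1 fell. Atf4 itself went from 245 to 255 FPKM to 351 to 386 FPKM (0.54, adjusted p = 0.000827), Trib3, a pseudokinase that restrains it, rose by 0.63 (adjusted p = 0.000895) and Ppp1r15a, the phosphatase subunit that reverses eIF2 alpha phosphorylation, by 0.77 (adjusted p = 0.0123). Ddit3, which encodes the pro-apoptotic factor CHOP, passed narrowly at 0.28 (adjusted p = 0.0349), a call lost without any single library but TCA replicate 2 (adjusted p from 0.0686 to 0.0983) and in the fit of 12 libraries (0.0792). Of 13 genes of amino acid synthesis 7 rose, led by the serine enzyme Psph (0.65, adjusted p = 0.00236), and Cbs, which draws homocysteine toward cysteine, fell (−0.46, adjusted p = 0.0175, not passed without TCA replicate 1 or 3). Chac1, which degrades glutathione, rose by 0.77 (adjusted p = 0.00154) and Sesn2, an inhibitor of mTORC1, by 0.62. Cytosolic aminoacyl-tRNA synthetases, which load amino acids onto tRNA, moved with them: 11 of 20 rose and 0 fell, with a median of 0.28, led by the tryptophan enzyme Wars1 (0.54, adjusted p = 0.00912). With both replicate 2 libraries left out, 34 members of the stress response rose and 3 fell.

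Promoters of the response were searched for the C/EBP-ATF response element to which ATF4 dimers bind, spelled TGATGNAA, on both strands. Windows ran from 250 bases before to 50 bases after each gene's start in RefSeq (GRCm38.p6), with 8614 of the 10739 genes matched by symbol (80.2%). The letters were found for 10 of 36 genes of the list (27.8%), against 2.61% of all genes matched, 3.77% of those that rose and 1.86% of those that fell. The genes that rose include the risen members of this list, and members that rose were not compared with members that did not. The 4 members with the letters before the gene start and the largest rises are shown 5′ to 3′ on the strand of the gene, with 1 match per sequence in capitals, in either orientation, and a further match of Slc7a11 in lower case. They lie at chr3:50443627-50443686 (minus strand), chr2:119351023-119351082 (plus), chr7:45615596-45615655 (minus) and chr6:7693199-7693258 (minus).
Slc7a11: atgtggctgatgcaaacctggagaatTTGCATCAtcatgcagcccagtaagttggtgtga
Chac1: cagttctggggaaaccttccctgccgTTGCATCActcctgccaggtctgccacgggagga
Fgf21: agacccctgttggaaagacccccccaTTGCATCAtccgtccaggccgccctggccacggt
Asns: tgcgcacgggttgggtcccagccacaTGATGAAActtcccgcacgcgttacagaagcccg
Fgf21, a stress-responsive hormone, rose by 0.56 (adjusted p = 0.0301) and Asns, the asparagine synthetase, by 0.35 (adjusted p = 0.0246). Neither passed without TCA replicate 1 (adjusted p = 0.108 and 0.0778) or TCA replicate 3 (0.0935 and 0.0914). A match is a description of the letters in the window and not a site of binding.

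Ribosome biogenesis had the largest share of rises of any list. Of 32 genes for transcription of ribosomal RNA by RNA polymerase I and for its processing in the nucleolus, 25 rose and 1 fell, with a median of 0.45. Rrp12, a factor of ribosomal subunit export, went from 2.14, 2.20 and 1.98 FPKM to 4.87, 5.0 and 4.7 FPKM (0.91, adjusted p = 0.000448). Bop1, of large subunit processing, went from 17.7 to 19.9 FPKM to 31.9 to 34.8 FPKM (0.80, adjusted p = 0.000326), and the nucleolar helicase Ddx21 from 28.4 to 29.9 FPKM to 48.1 to 52.7 FPKM (0.78, adjusted p = 0.000315). Nop58, of the box C/D ribonucleoprotein that methylates ribosomal RNA, rose by 0.77. The exception was Npm1, an abundant nucleolar chaperone, at 998 to 1050 FPKM untreated and 811 to 911 FPKM with TCA (−0.26, adjusted p = 0.0167, not passed without untreated replicate 1 or 3 or TCA replicate 3, nor with median-ratio scaling). With 1 library left out, 22 to 25 genes of the list rose. The 83 cytosolic ribosomal protein genes tested did not move with it: 1 rose and 0 fell, with a median of −0.03. Of 77 mitochondrial ribosomal protein genes 13 rose (16.9%, against 13.1% over all genes) and 2 fell (2.6%, against 15.6%). There were 8 rises without TCA replicate 3 and 0 falls in 5 of the 6 fits that left out a library.

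The 26S proteasome degrades ubiquitinated proteins through a 20S core capped by a 19S regulator. Of the 19S genes 14 of 18 rose and 0 fell, led by the ATPase Psmc5, at 87.3 to 95.0 FPKM untreated and 121 to 142 FPKM with TCA (0.55, adjusted p = 0.00154). Of the 20S genes 3 of 14 rose and 0 fell, with Psmb5 at the top (0.36). The 17 rises in both parts became 10 without untreated replicate 1, 10 without TCA replicate 1 and 9 without TCA replicate 3, and 21 with both replicate 2 libraries left out. Among heat shock proteins 9 of 21 genes rose, led by the HSP110 gene Hsph1 (0.54, adjusted p = 0.000914), and the constitutive HSP70 gene Hspa8 fell from 758, 907 and 804 FPKM to 539, 698 and 544 FPKM (−0.48, adjusted p = 0.0136, not passed without TCA replicate 3 at 0.0564). In the endoplasmic reticulum stress list 10 of 29 rose and 0 fell, with a median of 0.10, and the rises numbered 5 without untreated replicate 1 or TCA replicate 1 and 6 without untreated replicate 2 or TCA replicate 3.

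Immediate early genes are switched on within minutes of growth factor or stress signals without new protein synthesis, and many depend on ERK signaling and on serum response factor. At 24 h, 17 of 29 rose and 0 fell, with a median of 0.35. After Egr3 and Ier2, the largest were Ccn1, a matricellular protein (19.1 to 22.5 FPKM untreated, 32.4 to 43.0 FPKM with TCA, log2 fold change 0.80, adjusted p = 0.00166), and Egr1, at 40.7, 32.3 and 49.8 against 64.0, 62.4 and 84.1 FPKM (0.77, adjusted p = 0.00872). Egr1 was lowest in replicate 2 of both groups, and the groups did not overlap. Srf, the serum response factor itself, rose by 0.69 (adjusted p = 0.00143), the AP-1 members Atf3 by 0.66 and Fosl1 by 0.65, Arc by 0.70 and Myc by 0.57 (adjusted p = 0.00479). Fos stood at 2.28 to 3.08 FPKM untreated and 3.07 to 3.84 FPKM with TCA and did not pass (adjusted p = 0.0604). It passed with median-ratio (0.0459) and quantile (0.0312) scaling and without untreated replicate 1 (0.0368) or TCA replicate 2 (0.0463). With 1 library left out, 13 to 17 genes rose and 0 or 1 fell.

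The ERK output list pointed the same way in fewer genes: 11 of 30 rose and 1 fell, with a median of 0.12. The EGF receptor ligands Hbegf and Ereg both rose by 0.72 (adjusted p = 0.000317 and 0.000682), Hbegf from 17.1 to 18.5 FPKM to 30.2 to 30.4 FPKM. The cytokine Lif rose by 0.66, and the feedback inhibitors Dusp2, Dusp5 and Errfi1 by 0.61, 0.53 and 0.50. Dusp6, a common readout of ERK activity, differed by 0.09 and did not pass. Among cytoskeletal genes, 8 of 24 rose and 1 fell. Actb went from 737, 944 and 774 FPKM to 1320, 1300 and 1270 FPKM (0.67, adjusted p = 0.00187), and Actg1 rose by 0.61 (adjusted p = 0.00305). Reads of these near-identical actins may be shared between them.

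Lysosomes hold acid hydrolases delivered by the mannose 6-phosphate route and a proton pump that keeps them acid, and many of their genes carry an E-box element bound by the factors TFEB and TFE3. Of 86 genes tested, 49 fell and 2 rose, with a median of −0.28. Of 37 hydrolases 24 fell and 0 rose, with a median of −0.34. The sialidase Neu1 stood at 16.2, 12.2 and 16.9 FPKM untreated and 7.80, 6.71 and 8.80 FPKM with TCA (−0.87, adjusted p = 0.0027), and Naglu, which cleaves heparan sulfate, at 29.6 to 31.0 against 17.1 to 17.6 FPKM (−0.77, adjusted p = 0.000282). The abundant cathepsins did not pass the test: Ctsd was at 266 to 287 FPKM untreated and 252 to 280 FPKM with TCA, and Ctsb at 180 to 211 and 170 to 182 FPKM.

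Of 19 membrane proteins of the lysosome 11 fell and 0 rose. After Gpnmb and Cd68 came Lamp2, a main glycoprotein of the membrane, from 57.6 to 61.2 FPKM to 37.3 to 44.9 FPKM (−0.55, adjusted p = 0.00174). Of 16 proton pump genes 7 fell and 1 rose, the falls led by Atp6ap2 (−0.58) and Atp6v1a (−0.51) and the rise being that of Atp6v0a2 (0.38, adjusted p = 0.00597). Igf2r, the receptor that delivers hydrolases, fell by 0.49 (adjusted p = 0.00106). Among the regulators, Tfe3 rose from 18.5 to 20 FPKM to 24.5 to 26.1 FPKM (0.39, adjusted p = 0.00296). Flcn, Fnip1 and Fnip2, which encode the folliculin complex that lets mTORC1 hold TFEB and TFE3 in the cytoplasm, fell by 0.62, 0.84 and 0.47 (adjusted p = 0.000827, 0.000914 and 0.00808). Tfeb, at 3.27 to 3.61 FPKM untreated and 3.35 to 3.87 FPKM with TCA, differed by 0.03. With 1 library left out, 33 to 46 of the 86 genes fell and 2 or 3 rose.

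The CLEAR element, TCACGTGA, which contains the E-box CACGTG and reads the same on both strands, was found before or just after the start of 12 of 70 lysosomal genes with a window (17.1%), against 2.46% of all genes matched. Its share was 3.71% among genes that fell and 1.14% among genes that rose. The genes that fell include the fallen members of this list. Members that fell were not compared with members that did not, so a part of the element in the falls was not tested. The 4 lysosomal genes with the element before the start and the largest falls are shown, with 1 copy of the element in capitals and a further copy of Ctsa in lower case, from chrX:134601167-134601226 (minus strand), chr2:164833734-164833793 (plus), chr16:44139358-44139417 (minus) and chr17:12769681-12769740 (minus) of GRCm38.p6.
Gla: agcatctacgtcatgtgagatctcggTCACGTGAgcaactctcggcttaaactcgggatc
Ctsa: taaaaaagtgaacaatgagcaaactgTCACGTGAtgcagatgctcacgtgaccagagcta
Atp6v1a: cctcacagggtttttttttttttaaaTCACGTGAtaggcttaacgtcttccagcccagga
Igf2r: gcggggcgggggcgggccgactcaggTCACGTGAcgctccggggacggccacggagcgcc
The alpha-galactosidase Gla fell from 8.90 to 10.2 FPKM to 5.12 to 5.40 FPKM (−0.75, adjusted p = 0.000682) and Ctsa, the protective protein of sialidase, from 79.3 to 82.5 FPKM to 54.0 to 55.2 FPKM (−0.56, adjusted p = 0.00046).

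Of 61 mitotic genes 29 fell and 0 rose, with a median of −0.20. The proliferation marker Mki67 went from 52.9, 55.6 and 49.4 FPKM to 34.4, 42.1 and 36.7 FPKM (−0.47, adjusted p = 0.00463), and Cenpf, a kinetochore protein, from 11.9 to 13.7 FPKM to 7.81 to 9.34 FPKM (−0.55, adjusted p = 0.00276). Top2a, the topoisomerase of condensing chromosomes, fell from 164 to 177 FPKM to 127 to 141 FPKM (−0.34), and the checkpoint kinase Bub1 fell by 0.44. All 31 spindle and kinetochore genes lay below zero, 15 of them past the test. The drivers of mitotic entry did not pass: Cdk1 stood at 28 to 30 FPKM untreated and 26.9 to 30.1 FPKM with TCA, and Ccnb1 at 49.2 to 52.3 and 46.7 to 49.5 FPKM. The 29 falls became 19 without untreated replicate 1.

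Of 54 DNA replication genes tested 9 fell (16.7%, near the 15.6% over all genes) and 0 rose, with a median of −0.10. The largest fall was that of the S-phase factor E2f1, from 15.8 to 16.5 FPKM to 10.6 to 11.5 FPKM (−0.51, adjusted p = 0.00122). The 9 falls depended on single libraries, with 6 falls without untreated replicate 1, 4 without untreated replicate 3, 1 without TCA replicate 1 and 3 without TCA replicate 3, and 17 falls with both replicate 2 libraries left out. Of 5 cyclin-dependent kinase inhibitors, which brake the cycle, 4 fell, among them Cdkn2d (−0.49, adjusted p = 0.0144, lost with no filter at 0.0572), Cdkn2c (−0.38) and Cdkn1b (−0.33, adjusted p = 0.0116, lost in the fit of 12 libraries at 0.0534). Cdkn1a, the p53 target p21, differed by 0.26 and did not pass (adjusted p = 0.143), but passed without TCA replicate 2 (0.0431). The D-type cyclin Ccnd2 rose from 12.4 to 12.9 FPKM to 18 to 19.1 FPKM (0.53, adjusted p = 0.000912).

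The cell cycle gene homology region, TTTGAA, through which the DREAM complex represses mitotic genes outside of division, was found on either strand for 35 of 51 mitotic genes with a window (68.6%), against 14.0% of all genes matched, 15.2% of those that fell and 12.5% of those that rose. The genes that fell include the fallen mitotic ones. Mitotic genes that fell were not compared with those that did not, so a part of these letters in the falls was not tested. For E2F sites, TTNGCGC, the share was 40.9% of 44 replication genes against 13.4% of all. The 4 mitotic genes with TTTGAA before the start and the largest falls are shown with 1 copy of the letters in capitals, in either orientation, and a further copy of Mki67 in lower case, from chr3:27153960-27154019 (minus strand), chr7:135716445-135716504 (minus), chr9:122951035-122951094 (plus) and chr6:125191677-125191736 (minus) of GRCm38.p6.
Ect2: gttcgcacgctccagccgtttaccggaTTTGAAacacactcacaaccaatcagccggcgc
Mki67: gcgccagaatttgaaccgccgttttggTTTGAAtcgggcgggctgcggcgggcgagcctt
Kif15: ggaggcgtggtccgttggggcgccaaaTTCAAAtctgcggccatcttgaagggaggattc
Ncapd2: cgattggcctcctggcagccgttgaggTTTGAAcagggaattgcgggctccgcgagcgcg
Ect2, the exchange factor of cytokinesis, fell by 0.47, the kinesin Kif15 by 0.37 and the condensin subunit Ncapd2 by 0.37. In the immediate early list the AP-1 letters TGANTCA were found for 1 of 22 genes (4.55%, against 6.29% of all genes matched), the cyclic AMP response element TGACGTCA for 2 (9.09%, against 3.69%) and the Egr letters GCGTGGGCG for 1 (4.55%, against 1.5%). Shares that rest on 1 or 2 genes cannot be told from those of all genes.

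Many glycolytic genes are targets of HIF-1, the factor of the hypoxia response. Of 21 glycolytic genes 10 fell and 0 rose, with a median of −0.22. With 1 library left out, 7 to 11 fell. Aldoc stood at 71.4, 64.2 and 76.7 FPKM untreated and 38.4, 29.9 and 38 FPKM with TCA (adjusted p = 0.00083), and Gapdh at 194 to 216 against 141 to 169 FPKM (−0.44, adjusted p = 0.00581). Pfkfb3, which makes the activator of phosphofructokinase, fell by 0.73 (adjusted p = 0.0111). Of 19 hypoxia genes 7 fell and 0 rose, with a median of −0.43. The mitophagy receptor Bnip3 fell from 148, 114 and 158 FPKM to 93.8, 64.7 and 90.1 FPKM (−0.76, adjusted p = 0.00892) and Pdk1, which inhibits pyruvate dehydrogenase, by 0.69 (adjusted p = 0.00235). The prolyl hydroxylase Egln3 fell by 0.88 (adjusted p = 0.0163), a call lost without untreated replicate 1 (0.0654) or 3 (0.0521). Hif1a differed by 0.10 and did not pass.

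These genes were also lower in the replicate 2 library of each group. The median level of the hypoxia list, relative to the untreated mean, was 0.11, −0.26 and 0.17 in untreated and −0.27, −0.61 and −0.33 in TCA libraries. The untreated replicate 2 library therefore lay just above the nearest TCA library. The median of the glycolytic list was −0.108 in untreated replicate 2 and −0.117 in the nearest TCA library, replicate 1. The 7 falls of the hypoxia list became 4 without untreated replicate 1 and 12 without untreated replicate 2. They were 13 with both replicate 2 libraries left out. In the insulin and FoxO list 5 of 13 fell and 1 rose: after Txnip, Foxo3 fell by 0.58 (adjusted p = 0.014) and Foxo1 by 0.43. The 5 falls became 3 without untreated replicate 1 or 2 and without TCA replicate 1 or 3.

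**Figure D4:**
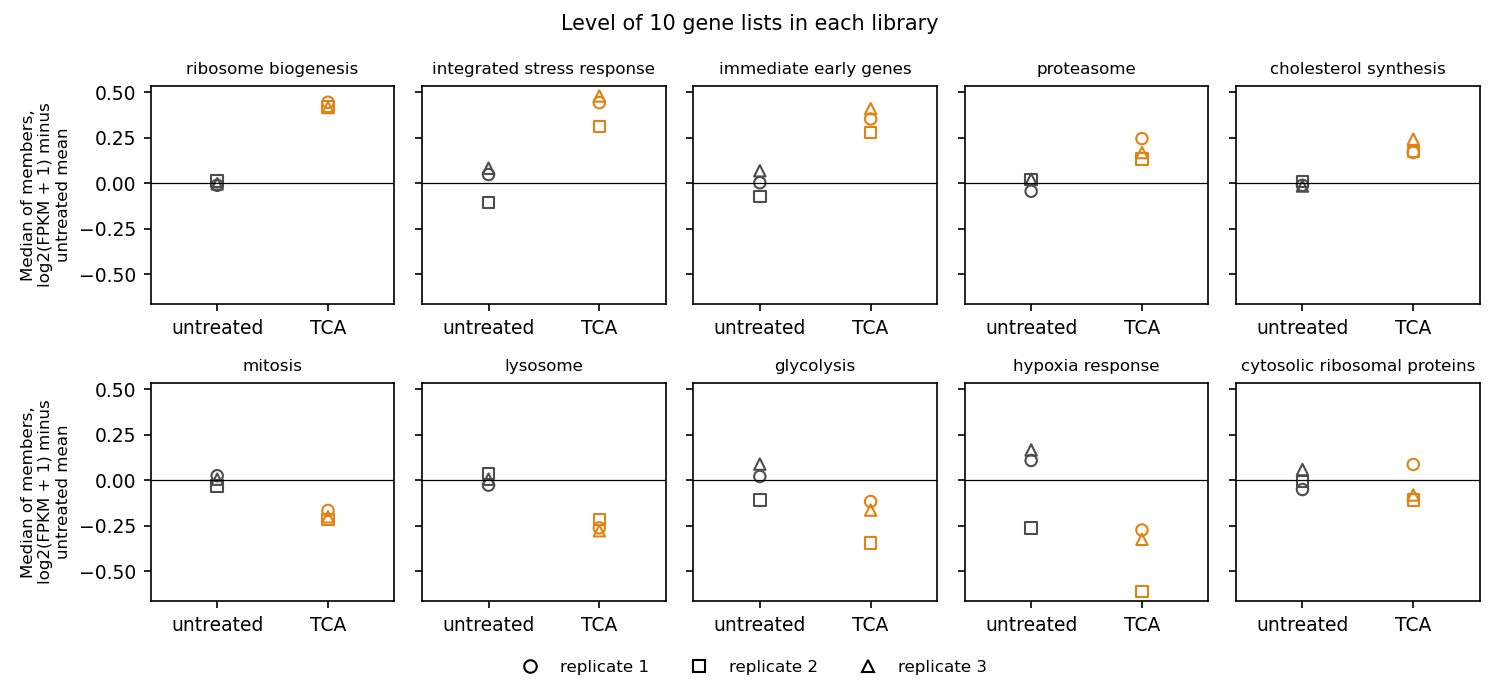
Median over the members of 10 lists of log2(FPKM + 1) minus the untreated mean (y) in each library (grey untreated, orange TCA, symbols for replicate numbers). Ribosome biogenesis separates the groups most tightly, at −0.01 to 0.01 against 0.42 to 0.45, while the replicate 2 library lies lowest in both groups for glycolysis and the hypoxia response.

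Of 28 genes of cholesterol synthesis and its control 11 rose and 0 fell, with a median of 0.20. The sterol methyl oxidase Msmo1 went from 45.0, 42.5 and 49.8 FPKM to 75.4, 64.4 and 75.4 FPKM (0.64, adjusted p = 0.0016). The factor Srebf2 stood at 80.2 to 88.3 FPKM untreated and 84.4 to 91.0 FPKM with TCA and did not pass.

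For fatty acid and triglyceride synthesis, 10 of 19 genes rose and 1 fell. Fasn, the fatty acid synthase, rose by 0.56 (adjusted p = 0.00334), Acaca, which supplies malonyl-CoA, by 0.41, and the factor Srebf1 from 41.9 to 49.2 FPKM to 55.6 to 63.9 FPKM (0.37, adjusted p = 0.00964). The fall was that of Dgat2, which makes triglyceride, at 1.69 to 2.10 FPKM untreated and 0.755 to 1.2 FPKM with TCA (−0.50, adjusted p = 0.0161), lost without untreated replicate 3 (0.059) and with quantile normalization (0.0653). The 10 rises became 6 without untreated replicate 1 or 3 or TCA replicate 1 or 3. Of 34 genes of fatty acid oxidation 12 fell and 0 rose, with a median of −0.18 and 33 of 34 below zero. Hadh, of mitochondrial beta-oxidation, went from 24.4 to 26.8 FPKM to 16.1 to 17.2 FPKM (−0.57, adjusted p = 0.00083), and the peroxisomal lyase Hacl1 fell by 0.54. The 12 falls became 5 without TCA replicate 3, 7 with median-ratio scaling and 6 in the fit of 12 libraries.

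Angptl4 was the largest change among the PPAR targets, of which 5 of 23 tested rose and 5 fell, with a median of 0.02 (3 rises without TCA replicate 1 or 3). The mitochondrial thioesterase Acot2 rose from 4.38 to 5.08 FPKM to 6.33 to 8.57 FPKM (0.58, adjusted p = 0.00653) and the acyl-CoA synthetase Acsl5 by 0.39. The fatty acid binding protein Fabp5 fell from 12.4 to 14.9 FPKM to 7.46 to 8.99 FPKM (−0.69, adjusted p = 0.0016) and the droplet coat Plin3 by 0.41. Plin2, the droplet coat most often used as a PPAR readout, was at 31.6 to 39.6 FPKM untreated and 34.4 to 35.1 FPKM with TCA, and Cpt1a at 8.90 to 12.8 against 7.29 to 11.2 FPKM, neither past the test, though Cpt1a passed without TCA replicate 2 (adjusted p = 0.0414). Of the receptors Ppard was at 35.4 to 44.6 FPKM untreated and 37.4 to 44.2 FPKM with TCA, and Ppara and Pparg stayed under 1 FPKM. Pdk4 and Cd36 were listed at 0 in all 6 libraries.

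Few genes of bile acid handling were expressed. Of 47 genes listed, 40 had values and 12 were tested. Of the 12 tested, 4 rose and 3 fell, with a median of 0.01. All but Cyp7a1 of the synthesis genes Cyp7a1, Cyp7b1, Cyp27a1 and Akr1d1 were listed at 0 in every library, and Cyp7a1 reached 0.00608 FPKM in 1. Nr0b2, the SHP repressor induced by FXR, was listed at 0 in all 6. Nr1h4, which encodes FXR, was at 4.17 to 5.77 FPKM untreated and 5.69 to 6.12 FPKM with TCA (0.23, adjusted p = 0.119, passed without untreated replicate 2 at 0.0246), and Abcb11, the bile salt export pump and a main FXR target, stayed at 0.0786 to 0.203 FPKM. Gpbar1, which encodes TGR5, stayed under 1 FPKM. S1pr2 rose from 13 to 14.6 FPKM to 17.0 to 18.5 FPKM (0.32, adjusted p = 0.00925), and Vdr, another bile acid receptor, fell from 5.40 to 5.94 FPKM to 4.10 to 4.52 FPKM (−0.37, adjusted p = 0.00964).

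Export pumps accounted for the other rises. The multidrug transporter Abcb1b went from 6.78 to 7.09 FPKM to 9.67 to 10.5 FPKM (0.50, adjusted p = 0.00166) and Abcc4, a basolateral exporter of bile acids, from 13 to 14 FPKM to 16.3 to 19.1 FPKM (0.36, adjusted p = 0.00766). Abcb1a passed at 0.39 (adjusted p = 0.0286), a call that held without TCA replicate 2 and not without any other single library. Of the synthesis genes expressed, Hsd3b7 fell from 20.7 to 25.3 FPKM to 14.9 to 17.5 FPKM (−0.50, adjusted p = 0.00603) and Scp2, a peroxisomal thiolase and sterol carrier, by 0.35 (adjusted p = 0.00325).

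Of 33 targets of NRF2, the factor of the antioxidant response, 13 rose (39.4%) and 5 fell (15.2%, near the 15.6% over all genes). The falls numbered 3 without untreated replicate 1 or 3 or TCA replicate 1 or 3. The quinone reductase Nqo1 went from 12.6, 16.3 and 12.7 FPKM to 25.4, 23.2 and 24.8 FPKM (0.78, adjusted p = 0.00137), the pentose phosphate enzyme Pgd rose by 0.63, the sulfiredoxin Srxn1 by 0.59 and Gclm, of glutathione synthesis, by 0.53. The epoxide hydrolase Ephx1 fell from 8.96 to 11.5 FPKM to 4.61 to 6.41 FPKM (−0.81, adjusted p = 0.00314). Hmox1, a widely used target, differed by 0.03 and Nfe2l2, which encodes NRF2, by 0.06, and neither passed.

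The study concerns cuproptosis, a copper-dependent death that acts on lipoylated enzymes of the citric acid cycle, so these genes were read without copper. Of 20 tested 6 fell and 2 rose, with a median of −0.05 that moved to 0.01 among genes with a mean of at least 5 FPKM. Fdx1, the ferredoxin required for lipoylation, stood at 5.04, 5.33 and 5.46 FPKM untreated and 4.35, 3.61 and 4.0 FPKM with TCA (−0.33, adjusted p = 0.0178). The groups did not overlap, but the call was lost without untreated replicate 3 (0.0623), without TCA replicate 3 (0.0571) and with quantile normalization (0.0601). Lias, the lipoyl synthase, was at 9.37 to 10.5 FPKM untreated and 9.50 to 10.7 FPKM with TCA, Dlat at 18.8 to 20.8 and 19.4 to 21.3 FPKM, and Dlst at 57.2 to 59.3 and 61.3 to 66.7 FPKM, with log2 differences of 0.01, 0.01 and 0.13, none past the test except Dlst with median-ratio scaling (adjusted p = 0.0453). Besides Pdk1, the pyruvate dehydrogenase kinase Pdk2 fell by 0.43. The 6 falls became 3 without untreated replicate 3, and the 2 rises numbered 0 to 2 with a library left out. Among 25 genes of copper and zinc handling 5 rose and 4 fell, and the rises numbered 2 to 4 with a library left out (4 without untreated replicate 2). The copper exporter Atp7a fell from 4.95 to 5.69 FPKM to 3.10 to 3.98 FPKM (−0.50, adjusted p = 0.00788, lost in the fit of 12 libraries at 0.0751), the metallothionein Mt1 from 163 to 179 FPKM to 97.2 to 131 FPKM (−0.57, adjusted p = 0.00493) and the metalloreductase Steap3 by 0.55, whereas Mt2 was at 521 to 592 FPKM untreated and 563 to 703 FPKM with TCA (adjusted p = 0.138, passed with quantile normalization at 0.0215).

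Of 37 nuclear genes of complex I 1 rose and 1 fell, and of 39 genes of complexes II to V 3 rose and 2 fell, with 0 to 3 rises and 0 to 2 falls when a library was left out. The interferon and MHC class I list had 0 rises and 2 falls of 43, 10 falls without TCA replicate 2, 4 rises without untreated replicate 2, and 4 rises and 13 falls with both replicate 2 libraries left out. Its median level was highest in replicate 2 of both groups, at 0.23 and 0.14 against −0.14 to −0.10 in the other untreated and −0.26 to −0.21 in the other TCA libraries. In the NF-κB list 8 of 30 rose and 1 fell, led by the cyclooxygenase Ptgs2, at 70.0, 47.0 and 66.8 against 106, 85.6 and 124 FPKM (0.78, adjusted p = 0.0103), and the rises numbered 5 without untreated replicate 1 or TCA replicate 1, 13 without untreated replicate 2, and 17 without both replicate 2 libraries. Hedgehog signaling genes, with 18 tested, had 3 falls (16.7%, near the 15.6% over all genes) and 0 rises. The falls numbered 1 without untreated replicate 1 or 3 or TCA replicate 1 or 3, and 5 without TCA replicate 2. The receptor gene Smo was at 14.5 to 15.7 FPKM untreated and 11.5 to 14.0 FPKM with TCA (−0.23, adjusted p = 0.0611, passed without TCA replicate 2 at 0.0358 and without both replicate 2 libraries at 0.0271).

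The largest changes with TCA alone were then set beside the change with TCA in the presence of Cu/ES. The interaction, the change with TCA on Cu/ES minus the change with TCA alone on log2(FPKM + 1), was tested in one limma fit of 12 libraries for the 5 largest rises and 5 largest falls. All 10 passed. Since these genes were picked for their change with TCA alone, the interaction is not independent of the choice, whereas the change on Cu/ES is. Angptl4 rose with TCA alone but stood at 4.27 ± 0.15 FPKM (SD, n = 3) with Cu/ES and 3.42 ± 0.46 FPKM with Cu/ES and TCA, a change of −0.26 (adjusted p = 0.072) and an interaction of −2.22. Egr3 and Atf5 rose on Cu/ES as well, by 0.75 and 0.63 (adjusted p = 9.65e-06 and 0.000349). Gpr15lg fell with TCA alone and rose by 0.93 on Cu/ES (adjusted p = 0.00459). Sord fell in both settings, by 1.27 alone and by 0.45 on Cu/ES (adjusted p = 0.000818). Serpinb2, Nppb, Gpnmb and Cd68 showed no change past the test on Cu/ES. Selenbp1 was near 0 there, at 0.0187 FPKM with Cu/ES and 0.00679 FPKM with both, so a further fall was not detectable. Nppb was at 700.0 and 712 FPKM in these groups against 3.84 and 10.1 FPKM without Cu/ES.

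**Figure D5:**
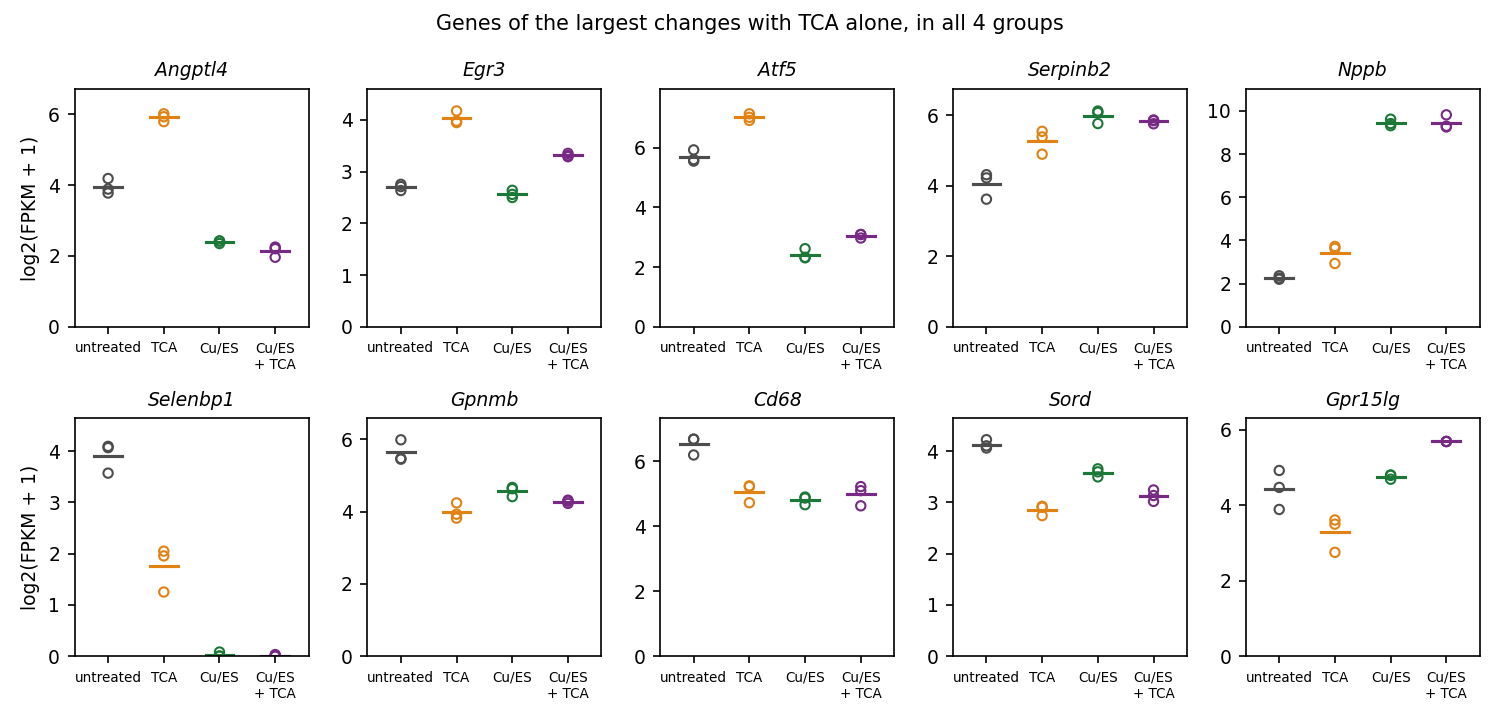
Level as log2(FPKM + 1) (y) of the 5 largest rises (top) and 5 largest falls (bottom) with TCA alone, in each library of the 4 groups, with a bar at each mean. Angptl4 is highest with TCA alone and low in both Cu/ES groups, and Gpr15lg is lowest with TCA alone and highest with Cu/ES and TCA.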

How the data were processed

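The authors deposited FPKM values per gene and library, made from polyadenylated RNA (VAHTS Universal V6 kit, NovaSeq). The submitters' processing notes name fastp, HISAT2, HTSeq and GRCm39, and versions and use of strand are not given in the sources used here. Whole reads were recovered for all 22212 genes above 0 in at least 2 libraries (tolerance 0.02, or 0.1 for 14 genes). Here log2(FPKM + 1) of the 6 untreated and TCA libraries was fitted with limma 3.58.1 (R 4.3.3, trend, 4 residual degrees of freedom, Benjamini-Hochberg over 10739 genes). Changes of low genes are understated on this scale. Steps were tested on simulated data for this comparison, with 200 genes changed. Of these, 91% were recovered at 1.5-fold (10686 genes tested) and 96% at 2-fold (10681). Unchanged genes that were called numbered 14 at 1.5-fold and 15 at 2-fold. The simulation gave every gene the same spread setting and drew libraries independently, without what replicate 2 shares between the groups. How far these rates hold for the present data was not tested. Recovery of changes under 1.5-fold, the size of most changes called above, was not tested.

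Named genes were the 15 largest rises and 15 largest falls past the adjusted p with a mean of at least 5 FPKM and no overlap, up to 4 members per list and direction, regulators, and bile acid, PPAR, lipoylation, immediate early and marker genes. Other members were named after their values were seen. The comparison, its members and the gene lists were chosen with earlier results of these data known. Alternatives were another pseudocount (0.1), filters, scalings, a fit of 12 libraries, no trend, a block, limma-voom on recovered reads and each library left out. Leaving out both replicate 2 libraries was added after seeing the data. Reads of genes with near-identical copies, or overlapping genes, may be split by the counting. Promoter sequences come from RefSeq (GRCm38.p6), not the build of the counts. Tables and plots used Python 3.11.15, pandas 2.3.3, numpy 2.4.6 and matplotlib 3.10.9. A few members of the lists are not reported by name here.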

Additional observations from a re-analysis of the deposited data

Results flagged for a closer look

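For 10 genes the change with TCA differed between cells without and with Cu/ES by a test of the difference itself (limma, one fit of 12 libraries, Benjamini-Hochberg over all genes tested). The genes were the 5 largest rises and 5 largest falls with TCA alone, so the test is not independent of their choice. The share of all genes that pass it is not given. Values are the change with TCA on Cu/ES minus the change with TCA alone, on log2(FPKM + 1). The spread that the 4 groups share is too small for genes near 0 with Cu/ES. Among genes that rose with TCA alone the difference was −2.22 for Angptl4 (adjusted p = 3.23e-06), −0.58 for Egr3 (0.00154), −0.70 for Atf5 (0.00308), −1.39 for Serpinb2 (0.000926) and −1.15 for Nppb (0.0038). Among genes that fell with TCA alone it was 2.14 for Selenbp1 (5.98e-05), 1.35 for Gpnmb (0.000201), 1.63 for Cd68 (0.000275), 0.83 for Sord (0.000225) and 2.07 for Gpr15lg (0.000325). Selenbp1 was near 0 in both Cu/ES groups, and its difference did not pass with limma-voom on recovered reads (adjusted p = 0.296). That of Atf5, at 4.38 FPKM with Cu/ES and 7.31 FPKM with Cu/ES and TCA, passed narrowly with limma-voom (adjusted p = 0.0495).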

How the results depend on the processing

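The numbers of genes past the adjusted p stayed within 1.5 times of 3078 with another filter, scale or model (2365 with no filter to 4452 with the replicate block) except with a library left out, where they were 1781 to 3099, with 834 to 1453 higher and 947 to 1646 lower. The 2-fold counts (7 higher, 16 lower, 23 in all) depended on the scale: 18, 81 and 99 with a pseudocount of 0.1, 14, 54 and 68 with TPM, and 23, 97 and 120 with limma-voom. With a library left out they were 5 to 10, 13 to 29 and 22 to 35. Leaving out both replicate 2 libraries gave 8, 27 and 35. The ratio of distances, 1.64, was 1.51 with no filter, 1.73 with a mean of at least 5 FPKM, 2.10 without both replicate 2 libraries and 1.56 to 1.76 with a library left out. Of the genes called, 2899 were also called by limma-voom and 2359 in the fit of 12 libraries. Of 128 named genes past the test, 108 kept their call in every fit and 0 changed sign. With no filter, which tests more genes, 15 of the 128 no longer passed (Cdkn2d, Foxo3, Pfkfb3, Ppp1r15a and Ptgs2 in this fit alone). Calls were lost for 4 with the fit of 12 libraries, 4 with quantile normalization and 0 to 10 with a library left out. Of 26 named genes not past the test, 9 passed without both replicate 2 libraries, 3 with median-ratio scaling, 2 with quantile normalization and 0 to 4 with a library left out. Replicate numbers paired the libraries in part only: deviations of same-numbered libraries correlated by 0.092, 0.58 and 0.31, and only replicate 2 correlated best with its own number in both directions. The main fit takes no account of what replicate 2 shares between the groups. With the replicate block 4452 genes passed (1996 higher, 2456 lower), all 3078 among them. The hypoxia list then had 14 falls and 1 rise, and the interferon and MHC class I list 15 falls and 4 rises. With the block, 6 of those 26 named genes passed (Cdkn1a, Cpt1a, Fos, Krt8, Krt19 and Smo). Small differences that did not pass changed sign in some fits. Without both replicate 2 libraries the log2 difference was 0.051 for Cdk1, −0.0026 for Dlat, −0.0112 for Hmox1 and −0.0082 for Srebf2. Quantile normalization gave −0.0199 for Plin2 and −0.0447 for Srebf2, and median-ratio scaling gave 0.027 for Cdk1 and 0.0427 for Ppard. With a library left out the difference ran from −0.051 to 0.0268 for Cdk1, −0.0306 to 0.0407 for Dlat, −0.164 to 0.1867 for Hmox1, −0.034 to 0.0575 for Lias, −0.035 to 0.1226 for Plin2, −0.1 to 0.063 for Ppard, −0.0157 to 0.0529 for Srebf2 and −0.0239 to 0.058 for Tfeb.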
